A study of Rattus norvegicus with 12 samples.

Results

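The genes described here code for the extracellular matrix, the protein network outside cells, with elastin (Eln) among them. They were chosen by symbol: 44 were named, 41 were found in the colon table, which lists 14803 genes, and 39 in the hippocampus table, which lists 14266. Of the 13130 genes present in both tables, 39 were matrix genes of the list. Col14a1 and Mfap5 were used in the colon and not analysed here in the hippocampus, and Col1a2, Col6a3 and Mfap4 were not analysed here in either tissue. The libraries came from bulk RNA of rat colon and rat hippocampus, from animals with hypoxic-ischemic brain damage (HI) or from sham controls. There were 3 libraries in each of the 4 groups and 12 in all: HI colon, sham colon, HI hippocampus and sham hippocampus. The labels used here name no strain, age, sex, time after injury or separate animal, and the series title places the study in newborn rats and concerns lipopolysaccharide of gut bacteria. Since no label states that the libraries of a group came from separate animals, every p-value below measures the spread between these libraries, part of which may be technical.

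The extracellular matrix gives tissues their shape, strength and recoil and holds signalling proteins close to cells. Elastin monomers are laid down on a scaffold of fibrillin and fibulins and are cross-linked by lysyl oxidases, collagens form fibrils and sheets, and small proteoglycans such as lumican and decorin space the fibrils. In the gut wall this network is made mainly by fibroblasts and smooth muscle, whereas in the brain collagens and elastin belong largely to blood vessels and meninges and the space between neurons is filled by other proteoglycans.

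The question asked of each gene was whether its level in HI libraries differed from that in sham libraries, in the colon and in the hippocampus. Levels are in FPKM, a unit that divides the fragments of a gene by its length and by the mapped total of the library, and changes are HI minus sham on the scale of log2(FPKM + 1), with the standard error of the limma fit. In the colon 34 of the 41 genes had a negative change, against 59.1% of the 13753 genes tested, and in the hippocampus 27 of 37 did, against 50.5% of 13181. No matrix gene passed an adjusted p of 0.05 in limma in either tissue, where 0.0436% of all colon genes (6) and 0.00759% of all hippocampus genes (1) did. At an unadjusted limma p under 0.05 the colon had 16 of 41 matrix genes, against 11.1% of all genes tested, and the hippocampus had 8 of 37, against 6.62%. Elastin had the smallest limma p of the matrix genes in both tissues, and its HI libraries were all below its sham libraries in both. The values that follow are therefore descriptions of group differences, none of which met the adjusted threshold.

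All listed genes together had between 495505 and 509775 FPKM per colon library, and between 452291 and 466432 FPKM per hippocampus library, and the sequencing depth is unknown. Of the 3 sham colon columns 2 share a name, and they appear here as sham 3a and sham 3b. The tissues matched their labels: 11 epithelial markers summed to between 5310 and 6793 FPKM in the colon libraries, and 9 neuron markers to between 2243 and 2365 FPKM in the hippocampus libraries. The hippocampus library HI 1 stood apart. Its 11 listed markers of the choroid plexus, the tissue that makes cerebrospinal fluid, summed to 4694 FPKM, against 17.4 to 46.4 FPKM in the other 5. Over 2 genes of the Y chromosome it had 38.6 FPKM, and the other 5 had at most 0.0584 FPKM, while in the colon sham 1 had 0.202 FPKM and the other 5 had at least 40.4 FPKM. By these levels the HI hippocampus group and the sham colon group each held tissue of both sexes and so of more than 1 animal. The HI colon libraries were alike in these genes, as were the sham hippocampus libraries. Sex was thus not balanced between HI and sham in either tissue, and its part in the changes was not tested. Among the colon libraries, Hox genes that mark position along the gut differed: group 13 genes, of the hind end, summed to 15.8, 57.8 and 83.6 FPKM in HI 1 to HI 3, and to 4.62, 3.14 and 24.3 FPKM in sham 1, 3a and 3b. Genes of Hox groups 2 to 9 summed to 254, 123 and 151 FPKM in HI and to 323, 366 and 192 FPKM in sham.

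Matrix transcripts took a larger place in the colon. In each of the 6 colon libraries the 41 genes summed to between 5439 and 6833 FPKM, or 1.09% to 1.35% of the total listed, and in each of the 6 hippocampus libraries the 39 genes summed to between 1042 and 1127 FPKM, or 0.230% to 0.247%. For 35 of the 39 shared genes every colon library was above every hippocampus library, and the median ratio of the colon mean to the hippocampus mean was 7.87. Each tissue has a table of its own from the authors, so these levels are set side by side without a test. The most abundant matrix transcripts of the colon were Col3a1, the chain of type III collagen, at a mean of 1031 FPKM over the 6 libraries, Sparc, a collagen-binding glycoprotein, at 990.3 FPKM, and Col1a1, a chain of type I collagen, at 699 FPKM. In the hippocampus Sparc led with 488 FPKM, followed by Timp2, an inhibitor of matrix metalloproteinases, with 148 FPKM and Htra1, a secreted serine protease, with 51.5 FPKM. The widest gap was that of Postn, periostin, with 303 FPKM in the colon and 2.07 FPKM in the hippocampus, a ratio of 146, and Col3a1 followed with a ratio of 67.3. The 4 genes whose libraries overlapped between tissues were Vcan, Htra1, Timp2 and Fbln2, of which Vcan codes for versican, a large proteoglycan that brain and connective tissue share. Elastin averaged 160.5 and 259 FPKM in HI and sham colon, and 19.3 and 42.3 FPKM in HI and sham hippocampus.

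Promoter sequences from RefSeq, assembly GRCr8, were at hand for 28 of the 44 genes. The other 16 were Eln, Fbln1, Mfap4, Lox, Loxl2, Col1a1, Col3a1, Col12a1, Col14a1, Col6a2, Dcn, Bgn, Fn1, Thbs2, Mmp2 and Mmp14. Shown here are Thbs1, Lum and Htra1, the genes with an entry whose HI and sham libraries did not overlap in either tissue and whose unadjusted limma p was under 0.05 in both. Each is the 150 bases before the start, 5′ to 3′ on the plus strand, at chr3:125510100-125510249, chr7:34245556-34245705 and chr1:194927919-194928068 in turn. The last sequence is the 76 bases, at chr16:84885521-84885596 on the plus strand, between the starts of Col4a2 and Col4a1, the main type IV collagen chains of basement membranes, which are read away from each other from starts 77 bases apart. Capitals mark the letters CCAAT and GGGCGG, the motifs searched, or their complements where they stand on the minus strand.
Thbs1: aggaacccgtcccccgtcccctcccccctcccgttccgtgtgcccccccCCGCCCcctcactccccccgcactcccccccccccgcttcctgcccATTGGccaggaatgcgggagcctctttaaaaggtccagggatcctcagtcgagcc
Lum: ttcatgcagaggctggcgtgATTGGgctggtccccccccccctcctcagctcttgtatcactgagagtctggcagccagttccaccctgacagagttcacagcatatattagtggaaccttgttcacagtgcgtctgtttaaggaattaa
Htra1: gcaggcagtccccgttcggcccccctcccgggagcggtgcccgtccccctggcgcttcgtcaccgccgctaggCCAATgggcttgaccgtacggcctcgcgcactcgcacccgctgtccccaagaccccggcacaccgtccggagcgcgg
between Col4a2 and Col4a1: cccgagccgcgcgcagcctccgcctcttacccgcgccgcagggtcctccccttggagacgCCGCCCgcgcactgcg
In these windows Thbs1 held GGGCGG at -101 to -96 and CCAAT at -55 to -51, both on the strand opposite to the gene and counted back from the start, Lum held CCAAT at -130 to -126 on the opposite strand, and Htra1 held it at -77 to -73 on the same strand as the gene. Over the 250 bases before each start and on both strands, CCAAT stood in 10 of the 28 matrix promoters (35.7%) and in 34.0% of all 33469 promoters in the RefSeq table, and GGGCGG in 15 of 28 (53.6%) and 30.5% of all. TATAAA stood in 4 of 28 (14.3%) and 12.9% of all, and TGANTCA in 1 of 28 (3.57%), that of Col6a1, and 6.34% of all. The windows of Col4a1 and Col4a2 overlap, so their matches are partly the same letters. These are matches of letters and not measured binding.

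Elastin, the polymer behind the recoil of arteries and gut wall, lies in the deposited tables on chromosome 12 from 24978483 to 25021863, in a genome build not given in the sources used here. In the same tables Lum lies on chromosome 7 from 38819771 to 38826862, Thbs1 on chromosome 3 from 109862117 to 109873466 and Htra1 on chromosome 1 from 201499028 to 201548513. In the colon elastin had 185, 130.4 and 166 FPKM in HI 1 to HI 3, against 281, 272 and 225 FPKM in sham 1, 3a and 3b. All 3 HI libraries were below all 3 sham libraries, with HI 2 the lowest. The HI mean was 62.0% of the sham mean, and the log2 change was -0.70 ± 0.14 (limma adjusted p = 0.266). In the hippocampus elastin had 15.8, 19.5 and 22.8 FPKM in HI 1 to HI 3, against 56.0, 33.4 and 37.3 FPKM in sham 1 to sham 3. Again no HI library reached a sham library, and sham 1 was well above the other 2 sham libraries. The HI mean was 45.7% of the sham mean and the log2 change -1.07 ± 0.19 (limma adjusted p = 0.599). Leaving out sham 1 gave -0.85 and leaving out HI 1, the library with choroid plexus transcripts, gave -0.94. In bulk tissue fewer cells of a type and less RNA per cell cannot be told apart.

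**Figure D1:**
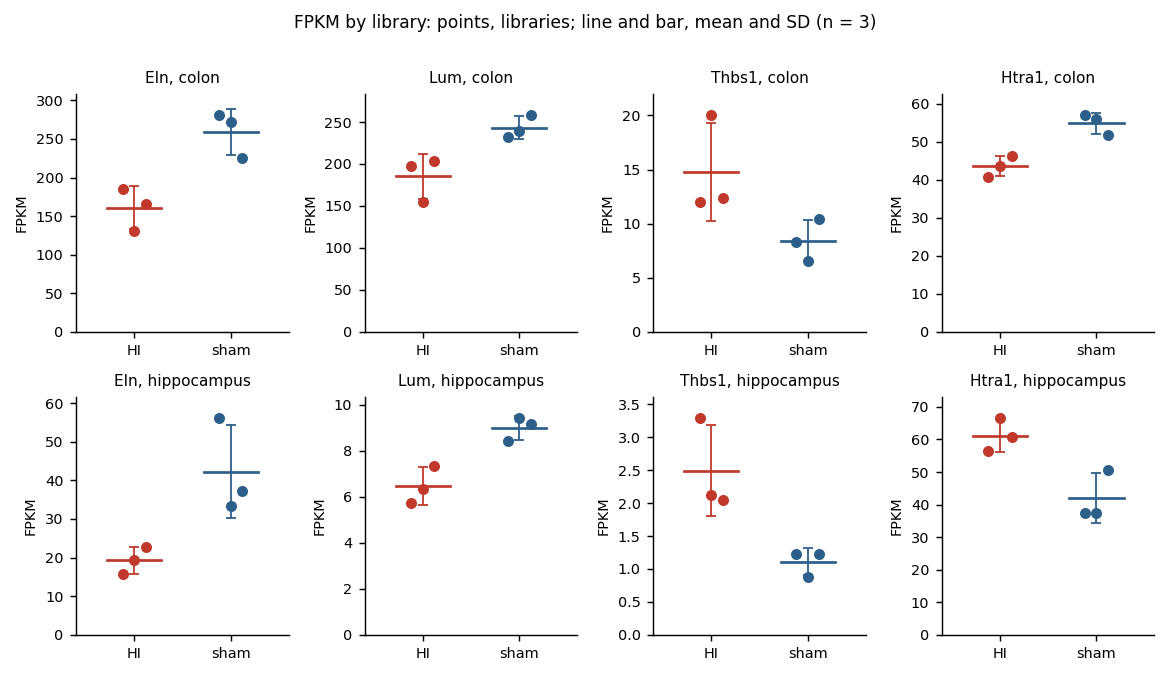
FPKM (y axis, from 0) of Eln, Lum, Thbs1 and Htra1 in HI and sham libraries of the colon (top) and hippocampus (bottom), with 1 point per library and the mean and SD of 3. Elastin and Lum are lower in every HI library of both tissues, Thbs1 is higher in every one, and Htra1 is lower in HI colon and higher in HI hippocampus.

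Beside elastin in the hippocampus, 9 listed smooth muscle markers summed to 55.7, 43.6 and 52.4 FPKM in HI 1 to HI 3, against 110.4, 64.2 and 68.6 FPKM in sham 1 to sham 3. Sham 1 was thus the highest library for both elastin and these markers, and HI libraries were below sham libraries for both. Of the 9 markers 8 had a negative change, with a median of -0.53, and 3 had an unadjusted limma p under 0.05 in that direction, among them Acta2, smooth muscle actin, at 14.3 ± 2.20 FPKM in HI and 30.03 ± 9.86 FPKM in sham (SD, n = 3 each). The ninth marker, Lmod1, was above in every HI library, at 1.25 ± 0.0869 FPKM in HI and 0.841 ± 0.138 FPKM in sham, with a change of 0.29 and an unadjusted limma p under 0.05. No marker was listed at 0 in all 6 libraries. Of all genes tested, 50.5% had a negative change in the hippocampus and 59.1% in the colon. In the hippocampus 3.16% of all genes were lower with an unadjusted limma p under 0.05. With the mean log2 level of these markers as a covariate, a fit added after the data were seen, the elastin change in the hippocampus was -0.78 (limma adjusted p = 0.839). That mean level was 2.27, 2.01 and 2.06 in HI 1 to HI 3 and 2.97, 2.28 and 2.32 in sham 1 to sham 3. Since it separates HI from sham, a fit with it cannot divide a change between marker level and group. In the colon the 10 smooth muscle markers summed to between 6321 and 7611 FPKM in HI and between 5763 and 7026 FPKM in sham, and 9 of 10 had a positive change, with a median of 0.12. With them as a covariate elastin in the colon stood at -0.61, and with the Hox difference (group 13 minus groups 2 to 9) as a covariate at -0.43, with limma adjusted p-values of 0.98 and 0.937. Not all changes shrank with the Hox difference: 38 of the 41 matrix genes then had a negative change in the colon, in place of 34. Their median was then -0.31, in place of -0.18.

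**Figure D2:**
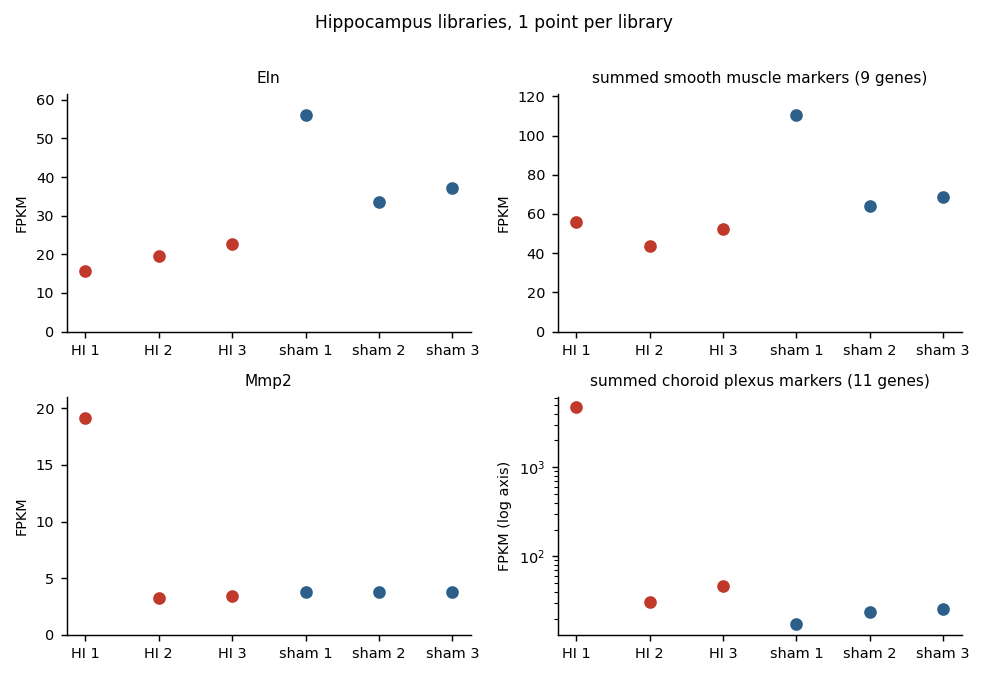
Elastin, the summed smooth muscle markers, Mmp2 and the summed choroid plexus markers in FPKM in each hippocampus library, HI left of sham, with a log axis for the last. Elastin and the smooth muscle sum are both highest in sham 1 (56.0 and 110.4 FPKM), and Mmp2 and the choroid plexus sum are both highest in HI 1 (19.1 and 4694 FPKM).

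The other elastic fibre genes of the chosen list differed less than elastin. In the colon 4 of the 5 had a negative change, against 59.1% of all genes tested. These lay between -0.20 for Fbln5 and -0.14 for Fbn1 (fibrillin-1, the backbone of the microfibrils), while Fbln1 was at 0.01. The HI and sham libraries of all 5 overlapped. Fbn2, which is outside the chosen list and is described below, changed by -0.76 in the colon, further than elastin. In the hippocampus Fbln5, which ties elastin to cell surfaces and to its cross-linking enzymes, had 5.53, 4.19 and 4.56 FPKM in HI 1 to HI 3, against 8.75, 5.93 and 7.07 FPKM in sham 1 to sham 3. As for elastin, every HI library was below every sham library and sham 1 was the highest. The log2 change was -0.51 ± 0.14 (limma adjusted p = 0.672), and it was -0.38 without sham 1 and -0.24 with smooth muscle markers as a covariate. The level of those markers separates HI from sham, as given above. Fbln2, Fbn1 and Fbln1 overlapped in the hippocampus, at -0.19, 0.09 and 0.14.

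Of the lysyl oxidases, which cross-link elastin and collagen, Loxl2 stood out in the colon. It had 26.6, 29.5 and 26.1 FPKM in HI 1 to HI 3, against 35.1, 34.3 and 34.3 FPKM in sham 1, 3a and 3b. The sham libraries lay close together and all 3 HI libraries were below them, with a log2 change of -0.33 ± 0.07 (limma adjusted p = 0.304). Lox and Loxl1 had changes of -0.24 and -0.07 with overlapping libraries. In the hippocampus Loxl1 was the most abundant at 8.99 and 10.02 FPKM in HI and sham and overlapped. Lox, at 1.12, 0.631 and 1.04 FPKM in HI 1 to HI 3 and 2.19, 1.24 and 1.26 FPKM in sham 1 to sham 3, was below in every HI library at a level near the filter of 1 FPKM (log2 change -0.40, limma adjusted p = 0.734).

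All 6 fibrillar and associated collagens listed in the colon had a negative change, with a median of -0.26, against 59.1% of all genes tested. At an unadjusted limma p under 0.05 and with a lower mean in HI, the colon had 13 matrix genes, or 13 of 41, where 6.55% of all genes tested met this, and 3 with a higher mean, where 4.6% of all did. HI libraries were below all sham libraries for 13 of the 41 genes, against 10.3% of all genes, and above them for 3, against 5.63%. Col5a2, a chain of type V collagen, which sets fibril width, had 91.0, 93.9 and 100.6 FPKM in HI 1 to HI 3, against 117.6, 110.01 and 110.7 FPKM in sham 1, 3a and 3b. The groups did not overlap and the log2 change was -0.24 ± 0.07 (limma adjusted p = 0.357). Its partner Col5a1 was likewise below in every HI library, at -0.28 ± 0.10 (limma adjusted p = 0.406).

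Col1a1 in the colon had 535, 569 and 752 FPKM in HI 1 to HI 3, against 785, 828 and 725 FPKM in sham 1, 3a and 3b. HI 3 lay within the sham range, and the log2 change was -0.35 ± 0.13 (limma adjusted p = 0.415). Col3a1 had 868, 1005 and 1145 FPKM in HI and 1050.3, 983 and 1134 FPKM in sham, an overlap with a change of -0.08 ± 0.11. In the hippocampus Col3a1 was among the genes furthest apart, at 14.0, 10.4 and 12.7 FPKM in HI 1 to HI 3, against 18.5, 17.6 and 18.8 FPKM in sham 1 to sham 3. The 3 sham libraries were close together above all HI libraries, and the log2 change was -0.54 ± 0.10 (limma adjusted p = 0.599). Col1a1 in the hippocampus had 12.5, 8.66 and 13.9 FPKM in HI, against 16.2, 15.1 and 18.9 FPKM in sham, also without overlap, with a change of -0.50 ± 0.16 (limma adjusted p = 0.716). Without HI 2, the lowest library, that change was -0.31. The other hippocampal fibrillar collagens, Col5a1, Col5a2 and Col12a1, overlapped at -0.19 to -0.04. The collagen VI chains Col6a1 and Col6a2, which form beaded filaments around cells, overlapped in both tissues, at -0.05 and 0.00 in the colon and at -0.33 and -0.28 in the hippocampus.

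All 7 genes of the basement membrane, the thin sheet under epithelia and around vessels and muscle, had a negative change in the colon, and for 5 of them every HI library was below every sham library. A negative change was found in 59.1% of all colon genes tested, and 10.3% had every HI library below every sham library. Nid1, nidogen, which links laminin to type IV collagen, had 62.9, 63.3 and 70.7 FPKM in HI 1 to HI 3, against 79.1, 84.7 and 81.7 FPKM in sham 1, 3a and 3b. Its log2 change was -0.32 ± 0.07 (limma adjusted p = 0.304), with a clear gap between the groups. Col4a1 had 190.3, 184 and 198 FPKM in HI 1 to HI 3, against 230.5, 211 and 220.1 FPKM in sham 1, 3a and 3b. Col4a2, its neighbour across the 76 bases of GRCr8 printed above, had 106, 112 and 118 FPKM in HI, against 149, 125 and 130.5 FPKM in sham. In the deposited coordinates the 2 lie further apart, with Col4a2, on the minus strand, ending at 83438561 and Col4a1, on the plus strand, beginning at 83522162. Both genes were below in every HI library, with log2 changes of -0.21 ± 0.07 and -0.26 ± 0.09 (limma adjusted p = 0.388 and 0.397). Col18a1, the source of endostatin, was at -0.25 ± 0.10 and the laminin chain Lamb1 at -0.17 ± 0.08, both without overlap, while Lamc1 and Col15a1 overlapped. In the hippocampus all 6 genes tested had negative changes between -0.13 and -0.01, and 1 of them, Lamb1, did not overlap. There 50.5% of all genes tested had a negative change, and 6.81% had every HI library below every sham library. Lamb1 had 14.2, 14.3 and 13.7 FPKM in HI, against 15.6, 15.5 and 15.6 FPKM in sham, a small gap with a change of -0.13 ± 0.06 (limma adjusted p = 0.734). Col15a1 was below the filter there, between 0 and 1.18 FPKM.

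Among the small leucine-rich proteoglycans, which bind collagen fibrils, Lum (lumican) was lower in every HI library of both tissues. In the colon it had 197, 154 and 203 FPKM in HI 1 to HI 3, against 232, 239.7 and 258 FPKM in sham 1, 3a and 3b. The log2 change was -0.40 ± 0.11 (limma adjusted p = 0.357), with HI 2 the lowest library, as for elastin. Without HI 2 it was -0.28. In the hippocampus Lum had 5.71, 6.34 and 7.34 FPKM in HI, against 8.40, 9.40 and 9.18 FPKM in sham, and a change of -0.43 ± 0.10 (limma adjusted p = 0.599). Dcn, decorin, overlapped in the colon at -0.21, and in the hippocampus it had 18.3, 20.4 and 24.5 FPKM in HI, against 26.5, 28.8 and 27.2 FPKM in sham. Those groups were apart, at -0.38 ± 0.10 (limma adjusted p = 0.672). Bgn, biglycan, overlapped in both tissues at -0.14 and -0.19.

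Ogn, osteoglycin or mimecan, was higher in HI colon. In the colon it had 58.7, 68.8 and 81.4 FPKM in HI 1 to HI 3, against 49.9, 47.3 and 56.8 FPKM in sham 1, 3a and 3b. Every HI library was above every sham library, with a log2 change of 0.42 ± 0.13 (limma adjusted p = 0.365), which was 0.15 with the Hox difference and 0.19 with smooth muscle markers as a covariate. In the hippocampus a mean change of 0.43 ± 0.41 rested on HI 1 alone, at 12.7 FPKM, since the other 5 libraries lay between 2.76 and 5.13 FPKM.

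Of the adhesive and matricellular proteins, Thbs1 (thrombospondin-1, which activates latent TGF-β and restrains blood vessel growth) was higher in every HI library of both tissues. In the colon it had 11.96, 20.03 and 12.3 FPKM in HI 1 to HI 3, against 8.31, 6.55 and 10.4 FPKM in sham 1, 3a and 3b. HI 2 was well above the rest, and the log2 change was 0.73 ± 0.22 (limma adjusted p = 0.372), 0.50 without HI 2 and 0.37 with the Hox difference as a covariate. In the hippocampus Thbs1 was low, with 3.29, 2.13 and 2.05 FPKM in HI, against 1.23, 0.876 and 1.23 FPKM in sham. HI 1 was the highest there, and the change was 0.71 ± 0.16 (limma adjusted p = 0.599), 0.56 without HI 1. Because the level is close to 1 FPKM, the added constant bears on this value, which was 1.08 with 0.1 in place of 1.

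Fn1, fibronectin, which carries cells on the matrix through integrins, had 85.9, 101 and 95.6 FPKM in HI colon 1 to 3, against 125, 113 and 113 FPKM in sham 1, 3a and 3b. All HI libraries were below all sham libraries, at -0.31 ± 0.08 (limma adjusted p = 0.357). In the hippocampus it overlapped, with 12.9, 14.7 and 13.1 FPKM in HI and 12.1, 12.6 and 13.9 FPKM in sham. Sparc had 828, 885 and 1121 FPKM in HI colon, against 1017, 1033 and 1058 FPKM in sham colon, overlapping. In the hippocampus it had 567, 498 and 472 FPKM in HI, against 453, 465 and 470.6 FPKM in sham, with HI just above sham and a change of 0.14 ± 0.07 (limma adjusted p = 0.759), which was 0.067 without HI 1. Postn, Tnc (tenascin-C) and Vcan overlapped in both tissues, with changes between -0.15 and 0.11. Thbs2 overlapped in the colon at -0.20, and it was below the filter in the hippocampus except in HI 1, at 1.89 FPKM against 0.365 to 0.656 FPKM in the others.

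The proteases and their inhibitors split. In the colon Timp1, an inhibitor of matrix metalloproteinases that is induced in injured and inflamed tissue, had 92.9, 120.2 and 97.2 FPKM in HI 1 to HI 3, against 59.6, 57.0 and 84.3 FPKM in sham 1, 3a and 3b. Every HI library was above every sham library, although sham 3b came close, and the change was 0.63 ± 0.17 (limma adjusted p = 0.355). With the Hox difference as a covariate it was 0.30. In the hippocampus Timp1 overlapped at 5.62, 5.74 and 3.76 FPKM in HI and 4.72, 5.39 and 5.28 FPKM in sham, a change of -0.04 ± 0.14. Mmp14, a membrane-bound metalloproteinase that activates Mmp2, was below in every HI colon library, at 66.9 ± 4.40 FPKM in HI and 77.5 ± 0.527 FPKM in sham (SD, n = 3 each), and overlapped in the hippocampus. Mmp2, a gelatinase, overlapped in the colon at -0.15. In the hippocampus it had 19.1, 3.24 and 3.46 FPKM in HI 1 to HI 3, against 3.75, 3.77 and 3.81 FPKM in sham, so its mean change of 0.60 ± 0.52 came from HI 1, and both other HI libraries were below the sham libraries. HI 1 is the library with choroid plexus transcripts, whose part in its Mmp2, Ogn, Thbs2 and Timp2 levels was not tested. Timp2 in the hippocampus had 96.6, 156 and 149 FPKM in HI and 151, 184 and 150.2 FPKM in sham, with HI 1 the lowest, and its change of -0.30 ± 0.17 was -0.08 without HI 1.

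Htra1 differed in direction between the tissues. In the colon it had 40.8, 43.7 and 46.2 FPKM in HI 1 to HI 3, against 57.0, 55.9 and 51.7 FPKM in sham 1, 3a and 3b. Every HI library was below every sham library, with a change of -0.33 ± 0.08 (limma adjusted p = 0.313). In the hippocampus it had 56.4, 66.5 and 60.7 FPKM in HI, against 37.5, 37.4 and 50.7 FPKM in sham. There every HI library was above every sham library, at 0.55 ± 0.12 (limma adjusted p = 0.599).

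**Figure D3:**
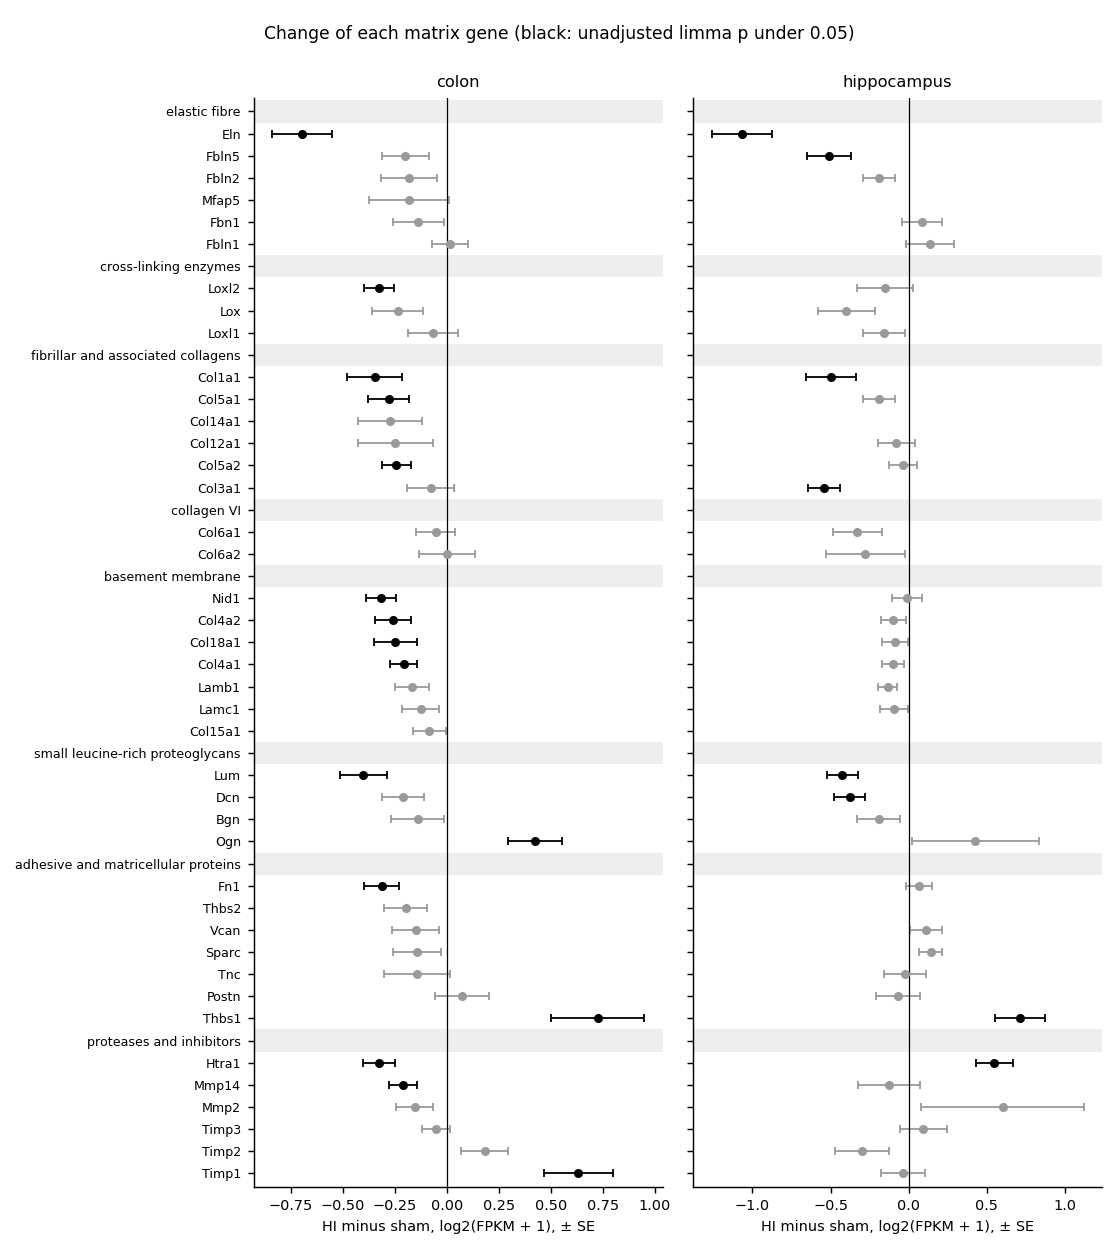
Change (HI minus sham, log2(FPKM + 1), x axis, with the limma standard error) of the 41 colon genes and of the 37 hippocampus genes tested, grouped by role, with black points for an unadjusted p under 0.05. Most points lie left of 0 in the colon, where all 7 basement membrane genes do, and elastin lies furthest left in both tissues, at -0.70 and -1.07.

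In the hippocampus, 6 of the 37 matrix genes tested had an unadjusted limma p under 0.05 with a lower mean in HI, against 3.16% of all genes tested, and 2 with a higher mean, against 3.45%. The HI libraries were below all sham libraries for 8, against 6.81% of all genes, and above for 3, against 6.4%. The median change of the matrix genes was -0.18 in the colon, beside -0.04 for all genes, and -0.10 in the hippocampus, beside -0.00. In the colon these numbers leaned on single libraries: HI 1 was the lowest of the 6 libraries for 29 of 41 genes, and its median difference from the sham mean was -0.31, against -0.14 in HI 2 and -0.07 in HI 3. Without HI 1 the colon median was -0.10 and 31 genes had a negative change. Without sham 1, low in Y chromosome transcripts, the number of genes with an unadjusted limma p under 0.05 was 10 in place of 16. In the hippocampus that number was 13 without HI 1 and 14 without HI 2, in place of 8, and the median was -0.05 without HI 3 and -0.03 with smooth muscle markers as a covariate.

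**Figure D4:**
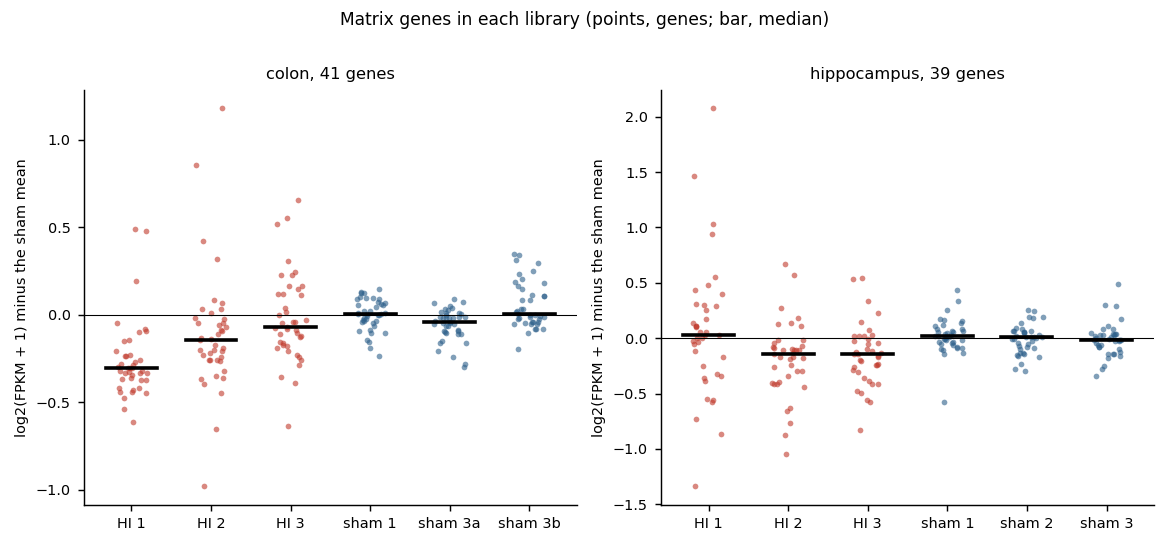
Difference of each matrix gene from its sham mean (log2(FPKM + 1), y axis) in each library, HI left of sham, with 1 point per gene and a bar at the median. The median of colon HI 1 is the lowest at -0.31, and hippocampus HI 1 has the widest spread, with a median of 0.03.

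Of the 37 genes tested in both tissues, 23 had a negative change in both, against 30.7% of 11861 genes. HI libraries were below all sham libraries in both tissues for 3 matrix genes, Eln, Lamb1 and Lum, against 0.733% of all genes, and above in both for 1, Thbs1, against 0.371%. The labels do not pair colon and hippocampus libraries. By the Y chromosome levels, HI hippocampus 2 and 3 differed in sex from all 3 HI colon libraries, and all 3 sham hippocampus libraries differed in sex from sham colon 3a and 3b, so these did not share an animal, and sex was not balanced between the tissues. The difference of the changes, colon minus hippocampus, was fitted over the 12 libraries. It passed an adjusted p of 0.05 in limma for 0.0154% of 13015 genes (2) and for no matrix gene, and an unadjusted p under 0.05 for 9.2% of all genes and for 5 of 39 matrix genes. These were Htra1 at -0.87 ± 0.15 (limma adjusted p = 0.256), Fn1 at -0.38 ± 0.12, Col3a1 at 0.46 ± 0.16, Timp1 at 0.67 ± 0.23 and Nid1 at -0.30 ± 0.12, the last 4 with limma adjusted p-values between 0.414 and 0.502. Without sham hippocampus 3 the Htra1 difference was -1.02 with a limma adjusted p of 0.0133, the single setting in which a matrix gene passed. For elastin the difference was 0.37 ± 0.27, for Lum 0.02 ± 0.15 and for Thbs1 0.01 ± 0.29, so the errors leave room for sizeable differences of either sign.

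**Figure D5:**
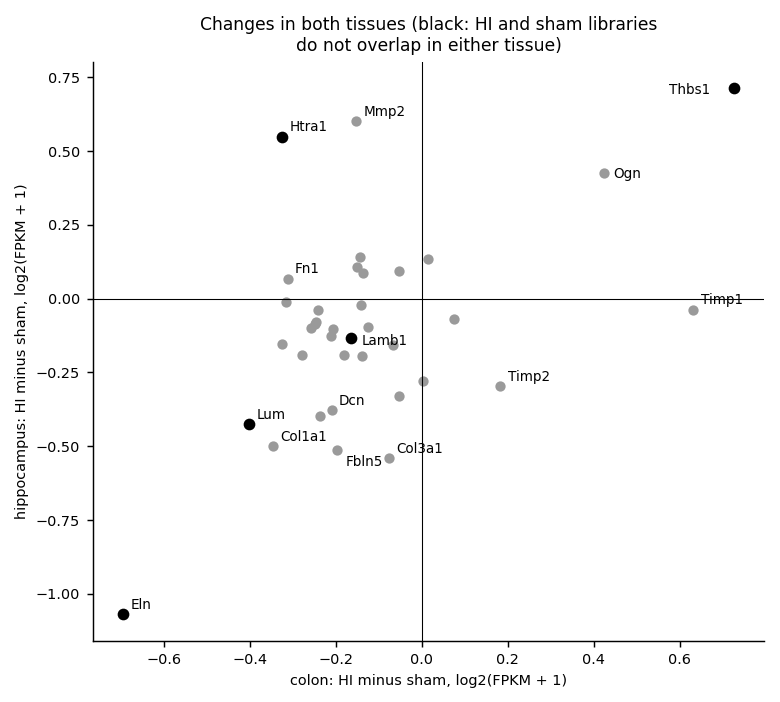
Change in the colon (x axis) against change in the hippocampus (y axis), HI minus sham on the log2(FPKM + 1) scale, for the 37 genes tested in both, with black points where HI and sham libraries do not overlap in either tissue. Elastin is at the lower left (-0.70 and -1.07), Thbs1 at the upper right (0.73 and 0.71) and Htra1 at the upper left (-0.33 and 0.55).

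Other genes of the same pathways were read from lists by role, and none of those counted here passed an adjusted p of 0.05 in limma in either tissue. Over all genes tested, 59.1% had a negative change in the colon and 50.5% in the hippocampus. At an unadjusted limma p under 0.05, 6.55% of all colon genes were lower and 4.6% higher. In the hippocampus 3.16% were lower and 3.45% higher. Of 13 further elastic fibre genes in the colon, 11 had a negative change and 5 an unadjusted p under 0.05 in that direction, with a median of -0.19. Fbn2, fibrillin-2, the form of early life, stood at 7.09 ± 0.197 FPKM in HI and 12.7 ± 1.43 FPKM in sham (SD, n = 3 each), with no overlap and a change of -0.76 ± 0.10 (limma adjusted p = 0.118). Mfap2, a microfibril protein, stood at 45.9 ± 10.3 FPKM in HI and 64.3 ± 8.13 FPKM in sham, at -0.50 ± 0.17 (limma adjusted p = 0.402). In the hippocampus 9 of these genes were tested, 6 with a positive and 3 with a negative change, and Ltbp2, a latent TGF-β binding protein relative, was above in every HI library at 1.63 ± 0.336 FPKM, against 0.928 ± 0.278 FPKM in sham.

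Genes that make and modify collagen gave 11 of 17 negative changes in the colon, 2 of them with an unadjusted limma p under 0.05, namely Bmp1, which trims procollagen, at -0.28 ± 0.10 and Adamts14, a procollagen peptidase, at -0.39 ± 0.14. In the hippocampus 6 of 16 were negative and none had an unadjusted limma p under 0.05. All genes tested gave 59.1% negative changes in the colon, 6.55% with an unadjusted limma p under 0.05, and 50.5% in the hippocampus. Of other basement membrane genes, Col4a6 was below in every HI colon library, at 14.0 ± 1.66 FPKM in HI and 20.9 ± 2.77 FPKM in sham. In the hippocampus Nid2 was below in every HI library, at 6.05 ± 0.218 FPKM in HI and 7.64 ± 0.630 FPKM in sham. The matrix of the brain's own kind, such as Ncan (neurocan) and Reln (reelin), gave 6 positive and 5 negative changes in the hippocampus, a median of 0.00, and no gene with an unadjusted limma p under 0.05.

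For scale, a negative change was found in 59.1% of all colon genes tested and in 50.5% of all hippocampus genes tested. In the hippocampus 3.45% of all were higher with an unadjusted limma p under 0.05, and 6.4% had every HI library above every sham library. Of 23 TGF-β genes, a pathway that drives matrix production, 12 had a positive and 11 a negative change in the colon. Tgfbi, a secreted matrix protein induced by TGF-β, stood at 156 ± 2.72 FPKM in HI and 209 ± 3.30 FPKM in sham, a wide gap with a change of -0.42 ± 0.06 (limma adjusted p = 0.122). Id1, a target of BMP signalling, was above in every HI colon library, at 187 ± 10.8 FPKM in HI and 120.8 ± 20.2 FPKM in sham, a change of 0.64 ± 0.12 (limma adjusted p = 0.204). In the hippocampus 14 of 21 had a positive change, 3 with an unadjusted limma p under 0.05. They were Ccn2, connective tissue growth factor, at 7.42 ± 1.29 FPKM in HI and 4.81 ± 0.193 FPKM in sham, Skil at 9.21 ± 1.34 and 6.71 ± 0.177 FPKM, and Id3 at 56.1 ± 6.07 and 46.02 ± 1.16 FPKM, with every HI library above every sham library for each. Among matrix-binding integrins and collagen receptors in the colon, Itgb4, the hemidesmosome chain, was above in every HI library at 83.2 ± 4.92 FPKM, against 65.9 ± 6.10 FPKM in sham, while Itga9 and Itga8 were below in every one, at -0.45 ± 0.14 and -0.34 ± 0.14. In the hippocampus 10 of 13 had a positive change, with Ddr1, a collagen receptor, at 22.1 ± 3.10 FPKM in HI and 17.0 ± 2.62 FPKM in sham. Other matrix proteases and inhibitors gave 12 of 18 negative changes in the colon, including Adamts9 and Ctsk (cathepsin K) below in every HI library at -0.33 ± 0.09 and -0.28 ± 0.10, and 5 of 13 in the hippocampus.

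Markers of cells that make matrix, or that bulk tissue could hold, had these values beside the matrix genes. Among all genes tested, 59.1% had a negative change in the colon and 50.5% in the hippocampus. At an unadjusted limma p under 0.05, 6.55% of all colon genes were lower and 4.6% higher. In the colon 10 of 13 fibroblast markers had a negative change, 5 with an unadjusted limma p under 0.05, and they summed to between 425 and 516 FPKM in HI and between 499.7 and 523 FPKM in sham. Foxf1, a factor of gut mesenchyme, stood at 46.3 ± 1.22 FPKM in HI and 60.0 ± 2.85 FPKM in sham, while Pi16, the marker with the greatest change of the list, was higher in HI on average, at 15.3 ± 4.94 FPKM in HI and 7.93 ± 4.27 FPKM in sham, with an overlap (log2 change 0.92, unadjusted limma p under 0.05). Of 9 pericyte markers 8 had a negative change, with a median of -0.26 and sums of 111 to 117 FPKM in HI and 120.0 to 137 FPKM in sham. Endothelial markers gave 8 of 11 negative changes, with sums of 96.7 to 126 FPKM in HI and 110.1 to 125 FPKM in sham. Macrophage markers gave 6 of 10 positive changes, with sums of 292 to 384 FPKM in HI and 319 to 389 FPKM in sham. No marker of these lists was at 0 in all 6 colon libraries, and the part of fibroblasts and pericytes in the matrix values was not tested. In the hippocampus 5 of 9 fibroblast markers and 6 of 9 pericyte markers had a negative change, with pericyte sums of 88.7 to 110.1 FPKM in HI and 96.9 to 113 FPKM in sham. Notch3, which pericytes and vascular smooth muscle carry, stood at 6.28 ± 0.0823 FPKM in HI and 7.93 ± 0.600 FPKM in sham. The 10 listed markers of meningeal fibroblasts summed to 101, 46.4 and 59.2 FPKM in HI 1 to HI 3 and to 58.7, 55.9 and 60.8 FPKM in sham 1 to sham 3, and myelin markers to 2777, 1363 and 2383 FPKM in HI and 1341, 1218 and 2147 FPKM in sham. With choroid plexus, myelin or meningeal fibroblast markers as a covariate, the elastin change in the hippocampus was -0.90, -0.995 and -0.97 in turn.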

How the data were processed

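For each tissue the authors deposited a table of FPKM values, 1 column per library, per the file headers. Aligner, quantifier, genome build and annotation were not given in the sources used here. Per the labels' protocols, RNA came from TRIzol extraction and libraries from purified, fragmented and PCR-amplified mRNA. The tables hold no counts, so no counting interval is given. Groups were taken from the sample titles and labels.

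In each tissue limma 3.58.1 (R 4.3.3) was fitted to log2(FPKM + 1), with eBayes and a trend, for all genes that reached 1 FPKM in at least 3 libraries, and Benjamini-Hochberg adjustment ran over all of them, with calls at 0.05. This scale understates changes of low genes. The difference between tissues came from a fit over the 12 libraries. The fits were tested on simulated data. Errors of FPKM are SDs.

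The matrix genes, the other lists and the tests were chosen with earlier results of these data known. Values per library are given for elastin, for up to 12 genes per tissue by smallest unadjusted p under 0.05 among those whose groups do not overlap, for the 4 most abundant per tissue, for the 5 with the smallest p of the difference, and for further genes chosen after their values were seen. From each other list, up to 4 genes with the smallest p could be named, and 5 list genes were found under a synonym. Alternatives were another added constant, no filter, median-ratio scaling, leaving out each library, the replicate number as a block, marker scores as covariates, and a joint fit.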

Additional observations from a re-analysis of the deposited data

Results flagged for a closer look

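Htra1 was marked for a closer look because every HI library was below every sham library in the colon and above every sham library in the hippocampus. The change was -0.33 ± 0.08 in the colon and 0.55 ± 0.12 in the hippocampus, and their difference, colon minus hippocampus, was -0.87 ± 0.15 (limma adjusted p = 0.256). The same pattern was seen in 0.531% of the 11861 genes tested in both tissues. Without sham hippocampus 3, the highest sham library at 50.7 FPKM, the difference was -1.02 (limma adjusted p = 0.0133), and without any other library it lay between -0.93 and -0.80 with adjusted p-values from 0.062 to 0.597.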

How the results depend on the processing

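No matrix gene passed an adjusted p of 0.05 in limma under any alternative within a tissue. Over them the elastin change ranged from -0.81 to -0.43 in the colon, with a lowest adjusted p of 0.0962, and from -1.22 to -0.78 in the hippocampus, with a lowest adjusted p of 0.223. Among the named genes 463 of the recomputed values kept their direction and side of the threshold, 13 reversed and 1 passed it. The cause of these shifts was not tested.

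The number of all genes called in the colon was 6, and 1 with the Hox difference, 1 with smooth muscle markers, 24 in the joint fit and 2 to 38 when 1 library was left out (13 without HI 1, 38 without sham 3b). In the hippocampus it was 1, and 0 with an added constant of 0.1, 0 with myelin, 0 with meningeal fibroblast and 0 with smooth muscle markers (the last fit was added after the data were seen), 3 with choroid plexus markers and 0 to 5 when 1 library was left out. For the difference between tissues it was 2, and 1 with 0.1 added, 1 with median-ratio scaling and 1 to 25 when 1 library was left out (25 without sham colon 3b).

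Matrix genes with an unadjusted limma p under 0.05 numbered 10 to 22 in the colon when 1 library was left out, 8 to 14 in the hippocampus (13 with choroid plexus markers), and 4 to 11 for the difference (11 without HI hippocampus 2), where 0 to 1 matrix genes were called. The colon median of -0.18 was -0.31 with the Hox difference and -0.29 with smooth muscle markers.

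Signs turned for small changes. In the colon Col3a1 ranged from -0.17 to 0.025 (0.025 without HI 1) and Col6a2 from -0.12 to 0.16 when 1 library was left out, and Col6a2 was -0.22 with the Hox difference and -0.17 with smooth muscle markers, where Col3a1 was -0.30 and -0.27. In the hippocampus Nid1 ranged from -0.11 to 0.043 and Timp1 from -0.13 to 0.13 (0.13 without HI 3). With smooth muscle markers Nid1 was 0.13 and Fn1 -0.017, and with myelin markers Timp1 was 0.0054.

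No paired analysis was made in the colon or across the tissues, since no label used here pairs the libraries and 2 sham colon columns share a name. In the hippocampus the deviations of HI and sham libraries of the same number had correlations of -0.0522, 0.0825 and -0.0257. Those of unlike numbers ran from -0.135 to 0.139, and with 3 libraries per group these values cannot show whether the numbers pair the libraries. With the replicate block 0 genes were called and 12 matrix genes had an unadjusted limma p under 0.05. The depth is unknown, so values near 1 FPKM, such as those of Thbs1 and Lox in the hippocampus, have no counting error to read them by.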

Other observations

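Of all genes tested, 59.1% in the colon and 50.5% in the hippocampus had a negative change. At an unadjusted limma p under 0.05, 6.55% of all colon genes were lower and 3.45% of all hippocampus genes were higher. Mesothelial markers, of the outer lining of the gut, gave 4 of 5 negative changes in the colon, 2 with an unadjusted limma p under 0.05. Their mean log2(FPKM + 1) was 3.30, 3.17 and 3.35 in HI 1 to HI 3, against 3.53, 3.66 and 3.51 in sham 1, 3a and 3b, so every HI library was below every sham library. The exception was Krt19, a keratin that epithelial cells also carry, at 1641 ± 141 FPKM in HI and 1386 ± 161 FPKM in sham (SD, n = 3 each). Neuron markers in the colon gave 4 of 5 negative changes, 2 of them, Camk2a and Prox1, with an unadjusted limma p under 0.05, and sums of 25.7 to 34.3 FPKM in HI and 26.4 to 36.7 FPKM in sham. Both genes were near the filter of 1 FPKM, Camk2a at 0.977 FPKM in HI and 1.74 FPKM in sham, and Prox1 at 1.47 and 2.06 FPKM. In the hippocampus, 5 of 7 astrocyte markers had a positive change, 2 with an unadjusted limma p under 0.05, with sums of 642 to 810.3 FPKM in HI and 672 to 721 FPKM in sham. Macrophage and microglia markers gave 6 of 10 positive changes there, with sums of 166 to 177 FPKM in HI and 165 to 173 FPKM in sham. No gene of these lists passed an adjusted p of 0.05 in limma.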
